A study of Homo sapiens with 12 samples.

Results

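The RNA levels of 9 noncoding genes that carry small nucleolar RNAs (snoRNAs) in their introns were followed in A549 cells given a proteasome inhibitor. The genes were GAS5, SNHG1, SNHG5, SNHG6, SNHG7, SNHG8, SNHG12, SNHG15 and ZFAS1, taken by name from a deposited table of 58676 genes, and each was listed in the table and passed the filter on low values. Total RNA had been sequenced from 12 libraries of A549, a human lung carcinoma line kept in culture, in 6 groups of 2 libraries. The groups were a control line (genotype Control1) and the NFE2L1 knockout lines KO1 and KO2, each with DMSO vehicle or 200 nM bortezomib for 4 h. Bortezomib blocks the proteasome, and NFE2L1 is the transcription factor known to raise proteasome genes after such a block. The design asked how the knockout changes expression with and without the inhibitor. There was 1 control line, and whether any of the lines is a single clone is not given in the sources used here, so the effect of the knockout and that of any other line difference cannot be told apart.

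Small nucleolar RNAs guide chemical changes on ribosomal RNA. Those with box C/D guide methylation of riboses and those with box H/ACA guide the conversion of uridine to pseudouridine. Most are cut out of introns of a host gene, and the spliced host RNA is then left over. In the genes described here that spliced RNA holds no long reading frame and is known as a substrate of nonsense-mediated decay (NMD), a process that needs translation and degrades RNAs whose reading frame stops well before the last exon junction. Blocking translation is known to raise the level of such RNAs. No library here was treated with a translation inhibitor and translation was not measured, so the genes are called noncoding snoRNA hosts below.

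Values are FPKM, the fragments assigned to a gene per kilobase of its length, scaled to the depth of the library. The libraries held 13211608 to 23819258 assigned reads. The title suffix of a library (R1 or R2 in the KO lines, none or R2 in the control line) marked a difference that all groups shared. The mitochondrial share of reads was 12.3% to 19.3% in R2 libraries and 5.44% to 6.80% in the others. NFE2L1 itself was at 72.7 and 151 FPKM in the control line with vehicle, against 8.45 and 14.8 in KO1 and 18.6 and 33.6 in KO2. Of 7 A549 epithelial markers, 4 (KRT7, KRT8, KRT18 and AKR1B10) were above 10 FPKM in all 12 libraries. EPCAM (1.25 to 10.6 FPKM), CDH1 (1.42 to 9.53) and AKR1C1 (6.23 to 54.3) were not. Of 12 markers of other cell types 10 were below 1 FPKM everywhere, the exceptions being MBP (1.16 to 6.70) and SCGB1A1 (at most 1.71).

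The RNA ends and frames of these genes are shown first because both features are what the genes are known for. Many snoRNA hosts and ribosomal protein genes begin with a 5′ terminal oligopyrimidine tract, a C followed by a run of C and T. In GENCODE release 29, 25 of 128 annotated transcripts of the 9 genes (19.5%) began with C and at least 3 further pyrimidines, against 4.09% of the 105236 transcripts of all tested genes, and 8 of the 9 genes had at least 1 such transcript, SNHG15 being the exception. Transcripts of 1 gene share sequence, so the shares are descriptions, and the share of other genes with at least 1 such transcript was not computed. The first 30 bases are given in DNA letters for the spliced transcript with the longest tract of each gene other than SNHG6, whose sequence is not shown, with the leading pyrimidines in capitals:
GAS5-219: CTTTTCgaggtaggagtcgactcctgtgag
SNHG1-223: CTTattgggctcctgtctgcaggatttacg
SNHG5-212: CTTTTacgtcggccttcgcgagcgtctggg
SNHG7-201: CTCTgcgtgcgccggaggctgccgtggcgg
SNHG8-205: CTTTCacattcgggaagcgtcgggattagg
SNHG12-210: CCTTCCTgcgcgccgttccccgctagtcgc
SNHG15-201: CCgccatcctgggccccacgtgttgcctga
ZFAS1-208: CCTTCCCaggtattggcaacaccagaagtc
The tract was 7 bases long in the SNHG12 and ZFAS1 transcripts and 6 in that of GAS5. Over all annotated transcripts the longest was 11 for SNHG12, in an intron-retaining form, and 7 for SNHG6. The tract shown was 3 bases long in SNHG1, whose 1 transcript with a longer tract was annotated as an intron-retaining form, and 2 in SNHG15.

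The first ATG of each transcript was read to its stop codon. In 73 of 81 spliced transcripts of these genes (90.1%) the stop codon lay over 50 bases before the last exon junction, the arrangement that NMD is known to act on, against 71.1% of 2213 spliced transcripts of the other noncoding genes tested. All 9 genes had such a transcript among their 4 to 19 spliced ones. The share of other noncoding genes with at least 1 was not computed, so this does not set the 9 apart. The 3 shortest of the frames read from the transcripts above are given from ATG to stop, both in capitals:
SNHG5-212: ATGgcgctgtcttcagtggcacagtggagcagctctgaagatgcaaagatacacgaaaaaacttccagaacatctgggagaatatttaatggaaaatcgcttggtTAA
SNHG8-205: ATGtggccatctTGA
ZFAS1-208: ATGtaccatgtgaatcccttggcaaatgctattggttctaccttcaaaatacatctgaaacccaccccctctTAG
That of SNHG8 had 4 codons before its stop, that of ZFAS1 had 24 and that of SNHG5 had 35. The stop codon lay 101 bases before the last junction in SNHG8, 126 in ZFAS1 and 272 in SNHG5. The frames of SNHG12, SNHG15, SNHG1 and SNHG7 were longer, at 49, 50, 65 and 67 codons, and the stop codon lay 61 bases before the junction in SNHG1 and 67 in SNHG15. Transcripts annotated with a retained intron were 36.7% of those of the 9 genes, against 3.71% of those of the other noncoding genes tested. Such transcripts numbered 19 in GAS5, 13 in SNHG1, 10 in SNHG12, 4 in SNHG5 and 1 in SNHG6. SNHG7, SNHG8, SNHG15 and ZFAS1 had 0, so the share does not describe each gene. The deposited values count reads per gene, so spliced and unspliced RNA cannot be told apart.

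Positions are those of the deposited table. They matched GRCh38 (GENCODE release 29) for 95.2% of all genes and for 7 of these 9, although the submitters' processing notes name hg19. GAS5 (ENSG00000234741, chromosome 1, 173863900 to 173868882, minus strand) had the highest mean level at 43.6 ± 11.5 FPKM (SD over the 12 libraries). SNHG1 (ENSG00000255717, chromosome 11, 62851988 to 62855914, minus strand) had a mean of 34.8 FPKM, and SNHG5 (ENSG00000203875, chromosome 6, 85660950 to 85678736, minus strand) had 32.9. SNHG6 (ENSG00000245910, chromosome 8, 66921684 to 66926398, minus strand), SNHG8 (ENSG00000269893, chromosome 4, 118278709 to 118279823, plus strand) and SNHG7 (ENSG00000233016, chromosome 9, 136721366 to 136728184, minus strand) followed at 19.1, 18.8 and 17.1 FPKM. The lowest were SNHG15 (ENSG00000232956, chromosome 7, 44983023 to 44986961, minus strand) at 10.7, ZFAS1 (ENSG00000177410, chromosome 20, 49278178 to 49295738, plus strand) at 8.16 and SNHG12 (ENSG00000197989, chromosome 1, 28578538 to 28582983, minus strand) at 5.94 ± 1.67 FPKM. GAS5 exceeded SNHG1 in 12 of 12 libraries and SNHG7 exceeded SNHG15 in 12 of 12. The order of the other neighbours was not kept in every library, down to 7 of 12 for SNHG1 over SNHG5. The lowest level in a library was that of SNHG12, 3.44 FPKM from 161 reads, and the lowest read count was that of ZFAS1, 120 reads.

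The snoRNAs themselves were almost invisible in these libraries. The table held 23 snoRNA genes of 69 to 137 bases inside 8 of the hosts on the same strand, and 20 of them were listed at 0 in every library. The other 3 were SNORD12B and SNORD12C in ZFAS1 and SNORD99 in SNHG12, with 124, 29 and 63 reads over all 12 libraries. Library preparation selected fragments longer than these snoRNAs, per the labels' protocols, so the values below describe the host RNAs and not the snoRNAs.

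With bortezomib the host RNAs as a group were higher. Averaged over the 3 lines, the log2 fold change was positive for all 9 genes, from 0.17 for SNHG6 to 0.83 for SNHG7, with a median of 0.55, while the median of all 12194 genes tested was -0.0075. In the fit that takes the title suffix as a replicate block, 7 of the 9 rose (adjusted p under 0.05), where 27.0% of all genes tested were called higher. These were SNHG7, SNHG1, SNHG5, SNHG15, SNHG8, GAS5 and ZFAS1. In the fit without that block only SNHG7 rose, where 4.85% of all genes were called higher. Across genes, the R2-minus-partner difference was correlated between every pair of groups, with r of 0.696 to 0.89 over 15 pairs. This shows an offset shared by the R2 libraries. Whether vehicle and bortezomib libraries of the same suffix are matched is not given in the sources used here. Fold changes are those of limma on log2(FPKM + 1), which understates the change of low genes. In bulk RNA a change in the RNA per cell and a change in which cells are present cannot be told apart.

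**Figure D1:**
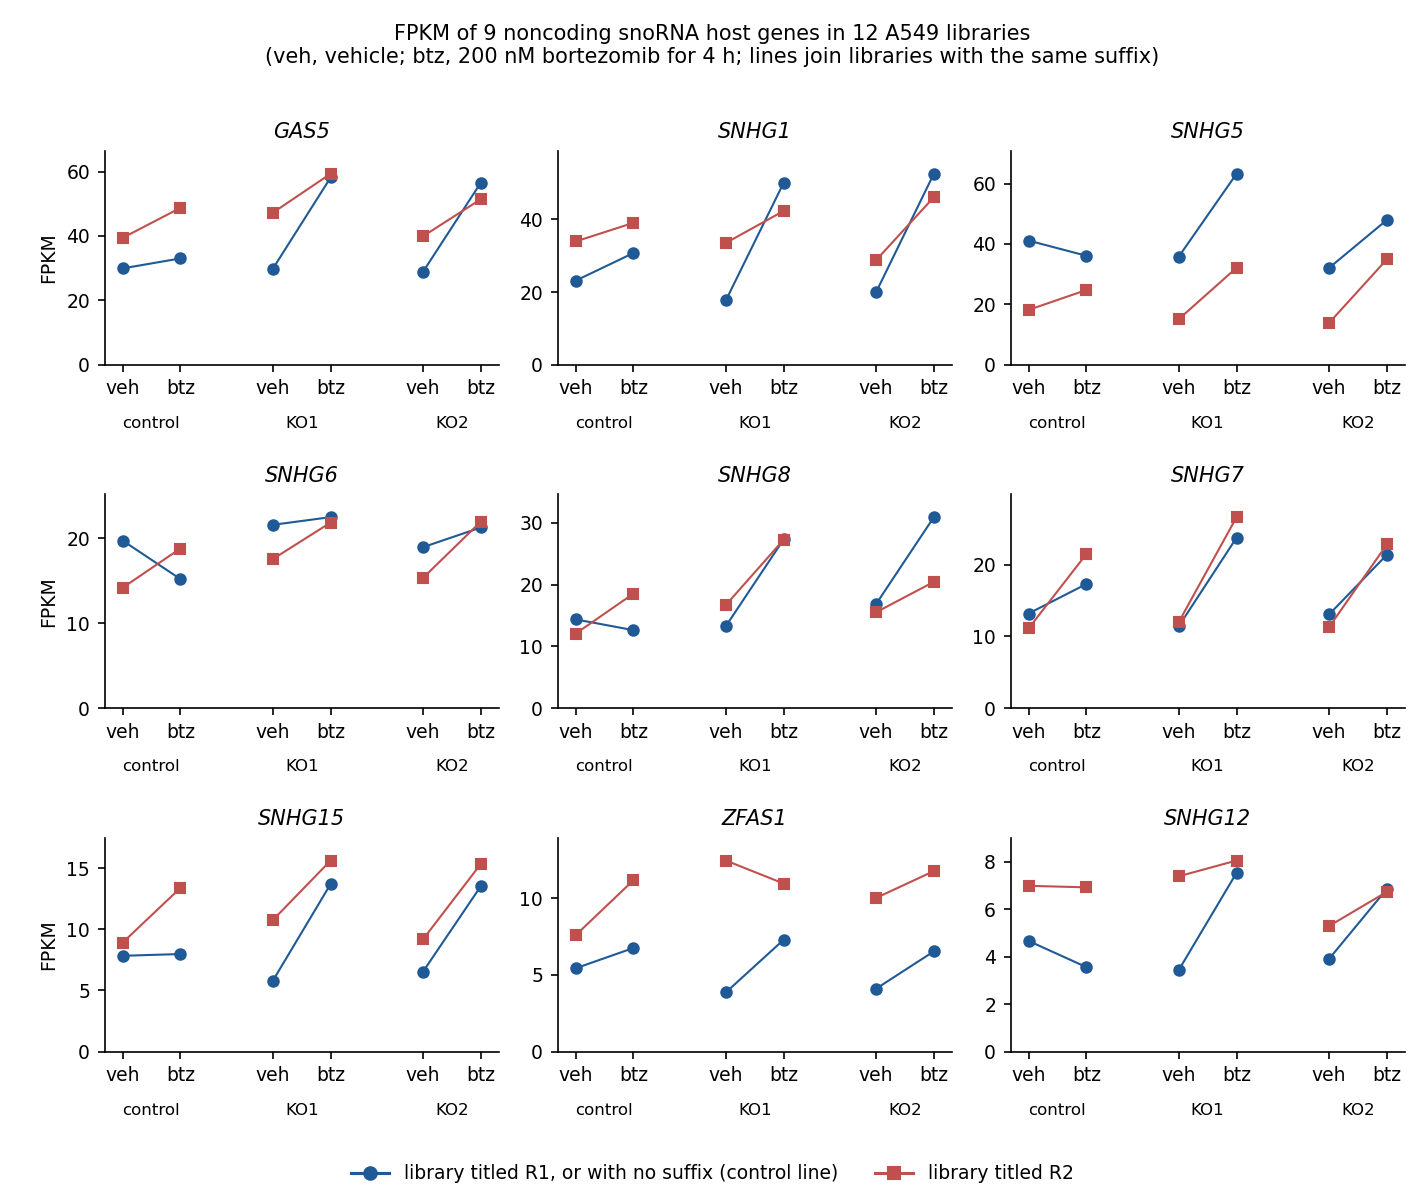
FPKM (linear axes starting at 0) of the 9 host genes in each of the 12 libraries, 1 panel per gene. Points are single libraries, circles for R1 or unnumbered libraries and squares for R2, and lines join vehicle and bortezomib libraries of the same line and suffix. All 6 lines rise for GAS5, SNHG1, SNHG7 and SNHG15, and the squares lie below the circles for SNHG5 and above them for ZFAS1.

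Among the hosts of box H/ACA snoRNAs, SNHG7, which carries the SNORA17 family, had the highest response of the 9. In the control line it was at 13.2 FPKM (unnumbered library) and 11.1 (R2) with vehicle, and at 17.3 and 21.4 with bortezomib. In KO1 (R1, then R2) it went from 11.4 and 11.99 to 23.7 and 26.6, and in KO2 from 13.0 and 11.3 to 21.4 and 22.8. All 6 bortezomib libraries were above all 6 vehicle libraries, a pattern whose share among all genes tested was not computed. Its log2 fold change was 0.83 over the 3 lines, with a limma adjusted p (Benjamini-Hochberg) of 0.0151 without the block (SE 0.17) and 0.000111 with it (SE 0.09). It overlaps 2685 bases of FAM69B on the opposite strand, a gene at a mean of 3.05 FPKM, and whether reads were counted by strand is not given in the sources used here. The call without the block was lost when either R2 library of KO2 was left out.

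SNHG15, which carries SNORA9, was at 7.83 and 8.90 FPKM in the control line with vehicle and at 7.97 and 13.4 with bortezomib. It went from 5.79 and 10.8 to 13.7 and 15.6 in KO1, and from 6.54 and 9.18 to 13.5 and 15.3 in KO2. Vehicle and bortezomib libraries overlapped in the control line and not in either KO line. The log2 fold change over the 3 lines was 0.63 (limma with the block, SE 0.11, adjusted p 0.00112), and the adjusted p was 0.0854 without the block.

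SNHG8, which carries SNORA24, was at 14.4 and 12.1 FPKM in the control line with vehicle and at 12.6 and 18.5 with bortezomib, so bortezomib had the lower value in the unnumbered pair and the higher value in the R2 pair. In KO1 it went from 13.3 and 16.7 to 27.3 and 27.3, and in KO2 from 16.9 and 15.5 to 30.9 and 20.4. Over the 3 lines its log2 fold change was 0.55 (limma with the block, SE 0.13, adjusted p 0.00696), against an adjusted p of 0.110 without the block.

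SNHG12 carries snoRNAs of both kinds, among them SNORA44, SNORA61 and SNORD99, and had the lowest level of the 9. It was at 4.66 and 6.98 FPKM in the control line with vehicle and at 3.56 and 6.92 with bortezomib. In KO1 it went from 3.44 and 7.38 to 7.53 and 8.05, and in KO2 from 3.90 and 5.29 to 6.85 and 6.73. The bortezomib library was the lower one in both control pairs and the higher one in all 4 KO pairs, as for 1.16% of all genes tested. Over the 3 lines it did not pass in either fit, with a log2 fold change of 0.28 and limma adjusted p-values of 0.0785 with the block and 0.468 without it.

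Among the hosts of box C/D snoRNAs, GAS5, named for its accumulation in growth-arrested cells, was the most abundant. It was at 29.9 and 39.4 FPKM in the control line with vehicle and at 33.0 and 48.7 with bortezomib. It went from 29.8 and 47.2 to 58.2 and 59.4 in KO1, and from 28.9 and 39.9 to 56.6 and 51.5 in KO2. All 4 bortezomib libraries of the KO lines were above all 6 vehicle libraries, a pattern whose share among all genes tested was also not computed. The log2 fold change over the 3 lines was 0.50 (limma with the block, SE 0.11, adjusted p 0.00495), and the adjusted p was 0.203 without it.

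SNHG1, which carries SNORD22 and SNORD25 to SNORD28, was at 23.1 and 33.9 FPKM in the control line with vehicle and at 30.7 and 39.1 with bortezomib. It went from 17.7 and 33.5 to 50.1 and 42.3 in KO1, and from 20.0 and 28.8 to 52.6 and 46.1 in KO2. The groups overlapped only in the control line. In each KO line the R1 library had the lower of the vehicle values and the higher of the bortezomib values. The log2 fold change over the 3 lines was 0.73 (limma with the block, SE 0.15, adjusted p 0.00277), with an adjusted p of 0.0843 without the block.

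SNHG5, host of the SNORD50 pair, was at 41.1 and 18.2 FPKM in the control line with vehicle and at 36.1 and 24.8 with bortezomib. It went from 35.8 and 15.1 to 63.3 and 32.1 in KO1, and from 32.1 and 13.8 to 47.96 and 34.9 in KO2. The R2 library was the lower one in 6 of 6 groups, at 0.422 to 0.728 times its partner, and in the control line the 2 libraries of a treatment differed more than the treatments did. Of the 9 genes this one had the largest fall in SE with the block: the log2 fold change of 0.65 had a limma adjusted p of 0.275 without the block (SE 0.35) and 0.00182 with it (SE 0.12).

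ZFAS1, which lies antisense to the start of ZNFX1 and carries the SNORD12 family, had the opposite library pattern. It was at 5.43 and 7.58 FPKM in the control line with vehicle and at 6.75 and 11.2 with bortezomib. It went from 3.85 and 12.5 to 7.29 and 10.96 in KO1, and from 4.10 and 10.0 to 6.53 and 11.8 in KO2. The R2 library was the higher one in 6 of 6 groups, at 1.40 to 3.23 times its partner, and the groups overlapped in all 3 lines. The log2 fold change over the 3 lines was 0.36, with limma adjusted p-values of 0.0310 with the block and 0.536 without it. Its blocked call held in 3 of the 12 fits that each left out 1 library, with adjusted p-values of 0.00626 to 0.105 over the 12. It shares 249 bases with ZNFX1, which was at a mean of 6.54 FPKM, so its reads and those of ZNFX1 are uncertain in the shared stretch.

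SNHG6, host of SNORD87, had the lowest response of the 9. It was at 19.8 and 14.2 FPKM in the control line with vehicle and at 15.2 and 18.8 with bortezomib. It went from 21.6 and 17.6 to 22.5 and 21.9 in KO1, and from 19.0 and 15.4 to 21.3 and 22.0 in KO2. It was higher in 5 of 6 pairs, by at most 1.43-fold. Its log2 fold change of 0.17 over the 3 lines did not pass in either fit, with limma adjusted p-values of 0.206 with the block and 0.624 without it.

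The 12 libraries were also compared as 6 pairs, each with the vehicle and the bortezomib library of 1 line and suffix. GAS5, SNHG1, SNHG7 and SNHG15 were higher with bortezomib in 6 of 6 pairs, a pattern that 24.8% of all genes tested showed. SNHG5, SNHG6, SNHG8 and ZFAS1 were higher in 5 pairs and SNHG12 in 4. The ratio of bortezomib to vehicle FPKM reached 2.83 for SNHG1, 2.52 for SNHG5 and 2.37 for SNHG15. The median ratio over the 9 genes was 1.02 in the unnumbered control pair and 1.36 in the R2 control pair. It was 2.06 and 1.26 in the R1 and R2 pairs of KO1, and 1.75 and 1.43 in those of KO2. The unnumbered control pair therefore stood lowest and the R1 pairs of the KO lines highest. Whether the suffix has a part in this was not tested.

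**Figure D2:**
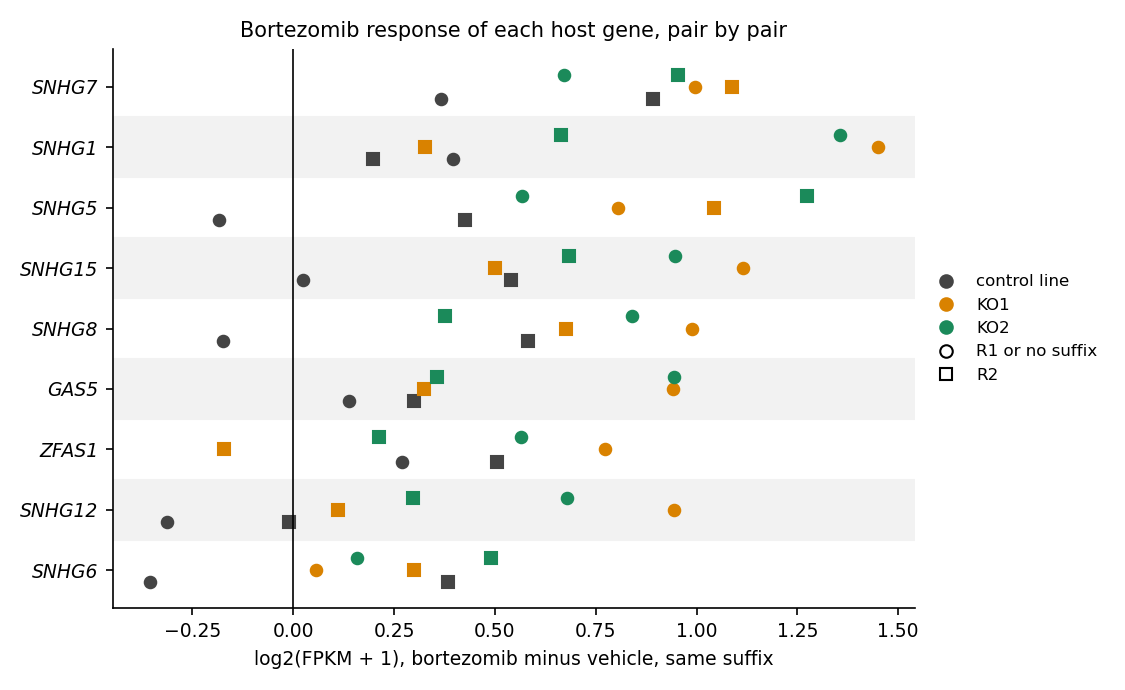
Difference in log2(FPKM + 1) between the bortezomib and the vehicle library of the same line and suffix, for each of the 9 genes, ordered by the mean response. Each gene has 6 points, coloured by line, and points right of 0 are higher with bortezomib. SNHG7 has all points between 0.37 and 1.09, and the 2 control points of SNHG12 lie below 0.

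Within single lines, the fitted bortezomib response had a lower median in the control line than in either KO line. In the control line 8 of 9 had a positive log2 fold change, from -0.16 for SNHG12 to 0.63 for SNHG7, with a median of 0.22. In KO1 all 9 were positive, from 0.18 for SNHG6 to 1.04 for SNHG7, with a median of 0.81, and in KO2 all 9 were positive, from 0.32 for SNHG6 to 1.01 for SNHG1, with a median of 0.65. With the block, SNHG7 alone rose in the control line, where 16.1% of all genes were called higher. In KO1, 6 rose (SNHG7, SNHG5, SNHG1, SNHG8, SNHG15 and GAS5) against 13.9% of all genes, and in KO2, 5 rose (SNHG1, SNHG5, SNHG15, SNHG7 and GAS5) against 12.7%. Without the block none of the 9 was called in any single line, where the share of all genes called higher was 0.156% in KO1, 0.172% in KO2 and 0.23% in the control line. In that fit 2 of the 9 had an unadjusted p under 0.05 in KO1, 2 in KO2 and 0 in the control line. Among all 12194 genes tested, 1153, 1169 and 1498 had one, in that order.

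Both bortezomib libraries were above both vehicle libraries for 1 gene in the control line (SNHG7), for 7 in KO1 (all but SNHG5 and ZFAS1) and for 8 in KO2 (all but ZFAS1). Over all genes tested this held for 12.6% in KO1, 15.8% in KO2 and 16.9% in the control line. In the control line the members' count was therefore near the share of all genes. The blocked counts depended on single libraries of the line concerned. In some of the fits without 1 library fewer of all genes were called too, so effect sizes are given. The blocked median log2 fold change of the 9 in KO1 was 0.81 with all libraries. It was 0.46 without the R1 vehicle library of KO1 and 0.92 without its R2 vehicle library. Without its R1 bortezomib library it was 0.57, and without its R2 bortezomib library 0.78. In KO2 the 9 values ranged from 0.20 (SNHG6) to 1.29 (SNHG1) over the 12 blocked fits that each left out 1 library. The single call of the control line was lost without either of its R2 libraries.

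The difference between the responses was tested as the interaction of knockout and bortezomib, the mean response of KO1 and KO2 minus that of the control line. It was positive for 8 of the 9 genes, with a median of 0.52 on the log2 scale against 0.0066 for all genes tested. It was highest for SNHG5 at 0.80, SNHG12 at 0.67 and SNHG1 at 0.65, and it was -0.04 for ZFAS1. None of the 9 passed. The lowest limma adjusted p was 0.308 with the block and 1.0 without it, and 3 of the 9 (SNHG5, SNHG12 and SNHG15) had an unadjusted p under 0.05 with the block and 0 without it. Among all 12194 genes, 0.0% were called in either fit, and the genes with an unadjusted p under 0.05 numbered 1305 (block) and 115 (no block). For GAS5, SNHG5 and SNHG12 all 4 KO pairs lay above both control pairs, which was so for 10.5% of all genes tested. A larger response in the KO lines was thus not shown for any of the genes at this number of libraries.

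Next, each KO line was set against the control line within each treatment. These comparisons share the control libraries, so their values are given side by side. With vehicle, 4 of the 9 genes were higher and 5 lower in each KO line, from -0.22 (SNHG5) to 0.21 (SNHG6) in KO1 and from -0.36 (SNHG5) to 0.28 (SNHG8) in KO2 on the log2 scale without the block. With bortezomib all 9 had positive values in both lines, from 0.04 (ZFAS1) to 0.79 (SNHG8) in KO1 and from 0.01 (ZFAS1) to 0.68 (SNHG8) in KO2. None of these 36 differences passed in limma, with or without the block by suffix, and 1 of them, SNHG8 in KO1 with bortezomib, had an unadjusted p under 0.05 in each fit. Of all 12194 genes, 671 had such a p in that comparison without the block and 2859 with it. The limma adjusted p of SNHG8 was 0.874 without the block, 0.169 with it, and 0.0467 with a block in which the unnumbered libraries share a level with R1. That last fit called 1565 of the 12194 genes in this comparison, in either direction. Calls in either direction made up 0.213% and 0.23% of all genes for KO1 and KO2 with vehicle and 0.107% and 0.0656% with bortezomib without the block. With the block they made up 5.95% and 4.91%, and 7.54% and 4.81%. Dividing by size factors changed the count of higher genes in KO2 with vehicle from 4 to 1, and in KO2 with bortezomib from 9 to 8.

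The 9 genes were set beside the other noncoding snoRNA hosts, which share the gene structure. The table held 18 such genes, of which 13 were tested, and their median log2 fold change over the 3 lines was -0.11. With the block 6 rose and 5 fell, where 27.9% of all genes were called lower, and without it 2 rose and 3 fell, where 6.76% were. EPB41L4A-AS1 had the largest rise, from a median of 2.15 FPKM (1.70 to 2.46) over the 6 vehicle libraries to 7.59 (5.24 to 11.2) with bortezomib, and SNHG17 went from 11.8 (8.89 to 15.4) to 21.9 (16.5 to 26.5). Both rose in 6 of 6 pairs, with log2 fold changes of 1.44 (limma with the block, SE 0.10, adjusted p 7.0e-06) and 0.82 (SE 0.09, adjusted p 7.5e-05).

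The largest falls among the other hosts were those of SNHG3 and SNHG19. SNHG3 went from a median of 13.2 FPKM (8.60 to 19.4) to 5.40 (2.47 to 7.18), and SNHG19 from 30.8 (19.0 to 47.8) to 12.3 (9.76 to 22.4). Their log2 fold changes were -1.25 (limma with the block, SE 0.09, adjusted p 7.1e-06) and -1.20 (SE 0.13, adjusted p 6.8e-05), and both fell in 6 of 6 pairs. SNHG4, DANCR and SNHG10 also fell, and SNHG16, LRRC75A-AS1, SNHG14 and SNHG11 rose. SNHG3 overlaps RCC1 on its own strand, a gene at a mean of 18.1 FPKM, so the split of reads between them is uncertain. None of the 9 genes had a negative value over the 3 lines, while 7 of the 13 other hosts did. Both sets were chosen with earlier results of these data known, so this contrast is no evidence of a trait particular to the 9.

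**Figure D3:**
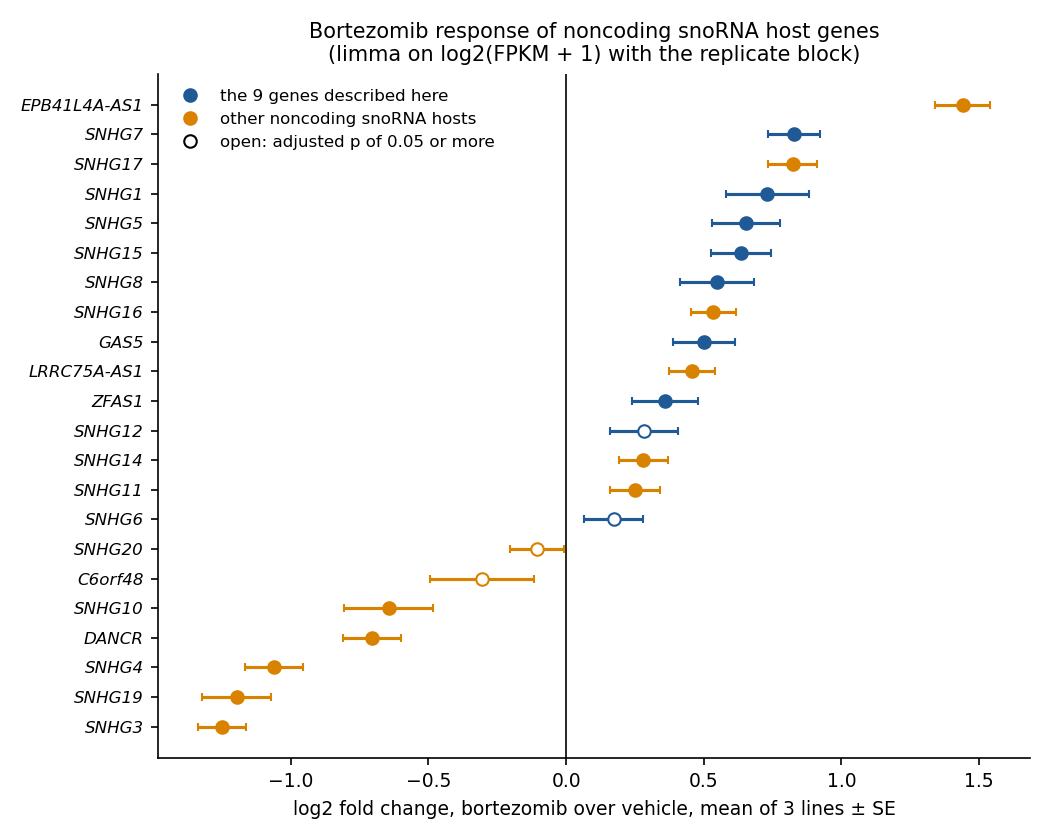
Log2 fold change of bortezomib over vehicle, mean of the 3 lines, for the 9 genes and the 13 other tested noncoding snoRNA hosts. Bars are the SE of the limma fit with the replicate block, and open points had an adjusted p of 0.05 or more. The 9 genes lie between 0.17 and 0.83, and the others between -1.25 and 1.44.

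Gene lists from the pathways around these RNAs were described in the same contrast by their counts, their median and the members with the largest calls. The counts stand beside all genes tested, of which 27.0% were called higher and 27.9% lower with the block, and 4.85% and 6.76% without it. In limma without the block, 3275 of all 12194 genes had an unadjusted p under 0.05. Of 47 protein-coding snoRNA hosts tested, 20 rose and 1 fell with the block, and in limma without it none was called and 2 had an unadjusted p under 0.05. The list's median was 0.33. The rises were led by TCP1, a subunit of the cytosolic chaperonin, from 41.2 ± 16.2 to 90.8 ± 34.8 FPKM (mean ± SD, n = 6), and HSPA9, the mitochondrial chaperone, from 97.8 ± 37.3 to 170 ± 57.0. SF3B3, a splicing factor subunit, was the 1 that fell, with a log2 fold change of -0.50 (limma with the block, SE 0.08, adjusted p 0.00092). Of 40 other mRNAs with a 5′ oligopyrimidine tract, 18 rose and 0 fell with the block, and in limma without it none was called or had an unadjusted p under 0.05. The median was again 0.33. The largest rises were EIF3E, a translation initiation factor subunit, at 0.70 and RPS19, a ribosomal protein, at 0.67. Of 17 snoRNP proteins, 7 rose and 1 fell with the block, and in limma without it none was called and 2 had an unadjusted p under 0.05. The median was 0.10. NOP58, a core protein of box C/D particles, rose by 0.71 and PIH1D1, an assembly factor, by 0.43, while NOP10 of the H/ACA particles fell by 0.43.

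The decay pathway was described through its factors and its protein-coding targets, beside the same shares of all genes (27.0% higher and 27.9% lower with the block, 4.85% and 6.76% without it). Of 24 NMD factors, 10 rose and 2 fell with the block, and the median was 0.19. Without the block 1 rose, a share near that of all genes. The kinase SMG1 (7.19 ± 0.78 to 13.2 ± 3.64 FPKM, mean ± SD, n = 6) and SMG5 (28.3 ± 3.16 to 48.2 ± 5.73) had the largest rises, at 0.76 and 0.75. RBM8A, an exon junction protein, fell by 0.31 and UPF2, a core NMD factor, by 0.22 on the log2 scale. Of 31 protein-coding genes listed as NMD targets, 15 rose and 3 fell with the block, 8 rose and 1 fell without it, and the median was 0.25. ATF3 and PPP1R15A, both also genes of the response to blocked translation initiation, had the largest rises at 3.52 and 2.90. MAP3K14, a kinase of the noncanonical NF-kB pathway, fell by 0.83 and the splicing factor gene SRSF2 by 0.61. The lists overlap and were chosen with earlier results of these data known, so they are no independent evidence of a direction.

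The list with the largest values was that of the eIF2α pathway, through which stressed cells limit the start of translation. All 15 of its genes rose with the block and 11 rose without it, with a median of 1.49. SESN2, a stress-induced sestrin, went from 3.08 ± 0.58 to 45.9 ± 4.79 FPKM (mean ± SD, n = 6) and ATF3, a transcription factor, from 0.517 ± 0.222 to 18.4 ± 8.43. Their log2 fold changes were 3.53 and 3.52, and both rose in 6 of 6 pairs. These are RNA levels of pathway genes, and any part of the pathway in the levels of the snoRNA hosts was not tested.

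**Figure D4:**
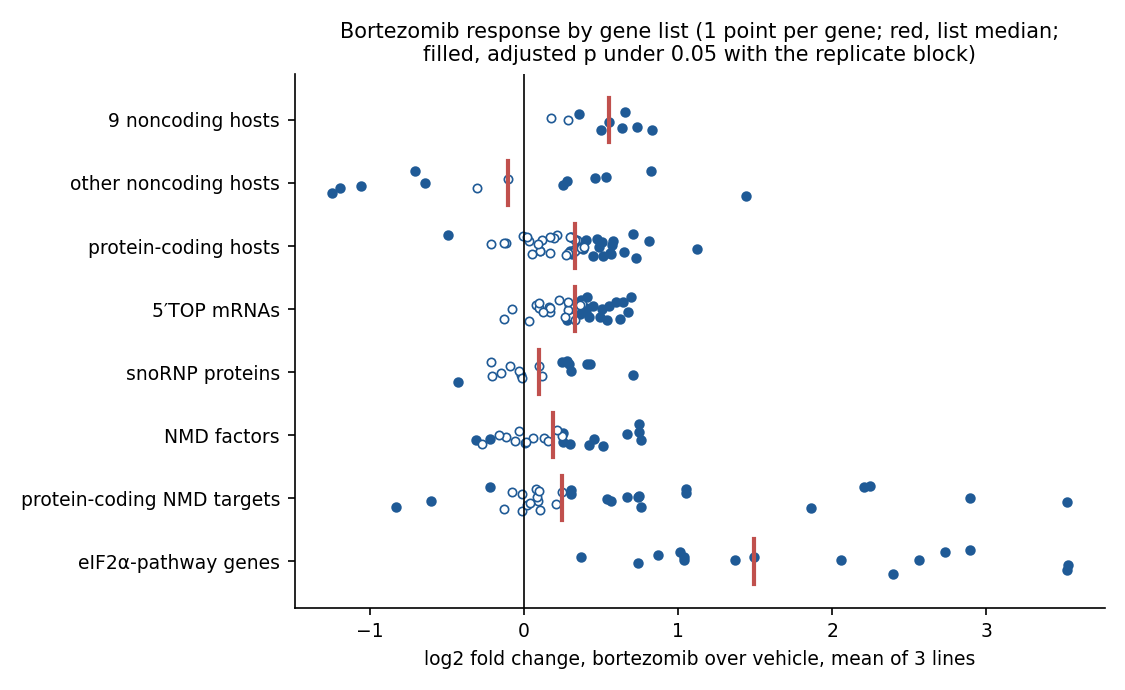
Log2 fold change of bortezomib over vehicle, mean of the 3 lines, for each tested gene of 8 lists. Points are genes (vertical scatter is only for display), filled where the adjusted p was under 0.05 in limma with the replicate block, and red bars are list medians. The 9 noncoding hosts have a median of 0.55, the other noncoding hosts -0.11 and the eIF2α-pathway genes 1.49.

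The genes did not all vary together. Pearson's r of log2(FPKM + 1) over the 12 libraries, which share treatment, line and suffix, ranged from -0.459 (SNHG5 with ZFAS1) to 0.956 (GAS5 with SNHG15) over the 36 pairs of genes, with a median of 0.674. The 3 negative values all joined SNHG5 or SNHG6, whose levels were lower in most R2 libraries, to ZFAS1 or SNHG12, whose levels were higher in most. Over the differences of the 6 pairs of libraries, r was 0.483 for SNHG5 with SNHG12. It was -0.25 for SNHG5 with ZFAS1 and -0.176 for SNHG6 with ZFAS1. Among 6938 other genes whose mean FPKM reached 5, the 5 most like the mean of the 9 over the 12 libraries were GTPBP2 (r = 0.928), GDF15 (0.922), MUM1 (0.906), C8orf4 (0.905) and NAT9 (0.898).

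The promoters of SNHG7, SNHG5 and SNHG1, the 3 genes with the highest log2 fold change over the 3 lines, are shown to give the sequence around their starts. Promoter windows of 250 bases before and 50 bases after the RefSeq (GRCh38.p14) start were used for 7 of the 9 genes. SNHG6 was left out by choice, as its sequence was above, and no window was used for SNHG15. The transcribed bases are in capitals:
SNHG7, chr9:136728135-136728434, minus strand: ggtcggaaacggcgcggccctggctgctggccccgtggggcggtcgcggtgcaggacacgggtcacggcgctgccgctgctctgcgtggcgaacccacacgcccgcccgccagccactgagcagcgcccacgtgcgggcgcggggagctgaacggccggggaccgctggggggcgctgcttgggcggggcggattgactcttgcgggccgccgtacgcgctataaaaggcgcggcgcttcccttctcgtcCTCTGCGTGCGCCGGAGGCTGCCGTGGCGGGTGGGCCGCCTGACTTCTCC
SNHG5, chr6:85678684-85678983, minus strand: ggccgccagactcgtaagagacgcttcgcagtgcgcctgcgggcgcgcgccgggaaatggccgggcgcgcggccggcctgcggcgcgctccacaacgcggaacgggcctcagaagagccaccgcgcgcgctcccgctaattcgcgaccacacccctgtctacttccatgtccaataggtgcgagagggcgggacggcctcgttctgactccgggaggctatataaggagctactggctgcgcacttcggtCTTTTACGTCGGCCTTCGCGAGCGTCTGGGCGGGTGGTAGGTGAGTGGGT
SNHG1, chr11:62855836-62856135, minus strand: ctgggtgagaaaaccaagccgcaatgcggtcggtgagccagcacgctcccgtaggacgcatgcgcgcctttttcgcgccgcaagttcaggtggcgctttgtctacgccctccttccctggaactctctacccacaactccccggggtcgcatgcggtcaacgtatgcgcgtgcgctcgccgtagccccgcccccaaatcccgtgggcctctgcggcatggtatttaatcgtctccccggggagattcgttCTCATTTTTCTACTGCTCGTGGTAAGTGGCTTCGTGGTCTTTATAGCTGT
Windows were searched on both strands for CACGTG (the E-box), TGACGTCA (the cyclic AMP response element), TGACNNNGC (the core of the antioxidant response element, which NFE2L1 and related factors are known to bind), TGATGNAA (the core of the element bound by ATF4 with C/EBP proteins) and TATAAA (the TATA box). The SNHG7 window held CACGTG with its first base at -122 and TATAAA at -30 on the gene's strand, and the SNHG1 window held TATAAA at +40 on the opposite strand. The other 3 motifs were in 0 of the 7 windows. Among 35116 promoter windows of the same length, CACGTG was in 7.26%, TATAAA in 11.5%, TGACNNNGC in 13.3%, TGATGNAA in 3.62% and TGACGTCA in 1.85%. Only exact matches were counted, so a near form such as TATATAAG in the SNHG5 window was not. A match, or none, describes only the letters of the window. At the RefSeq start, 4 of the 7 genes began with C and at least 3 further pyrimidines, against 5.45% of all windows.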

How the data were processed

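The deposited values were FPKM per gene for 58676 genes, scaled by the authors to the reads assigned to genes, with 1 column per library, and the gene length stood beside them per the file headers. The submitters' processing notes name CASAVA, STAR 2.5, HTSeq 0.6.1, DESeq2 and the build hg19 without giving their roles or the strand setting. The coordinates of the table matched GENCODE release 29 for 95.2% of genes. FPKM times length gave whole reads for every value (tolerance 0.05 of a read), which is where the depths come from.

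Groups and suffixes came from the labels. The test was limma 3.58.1 in R 4.3.3 on log2(FPKM + 1), with a mean-variance trend, 1 mean per group, all 12 libraries in 1 fit, a minimum mean FPKM of 1 (12194 genes, 20.8%) and Benjamini-Hochberg adjustment over all of them. The design without a replicate term is the main one, and the title suffix (R1, R2 or none) as a block is an alternative. The suffixes were taken to pair libraries because the R2-minus-partner difference correlated above 0.1 in all 15 pairs of groups (median r 0.811). That correlation shows a shared offset only. The block ties KO and control lines mainly through the R2 libraries. The labels do not say that libraries are separate cultures, so p-values measure the spread between these libraries, and with 2 against 2 an exact permutation test cannot go under 0.333.

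The members and gene lists were chosen with earlier results of these data known. Named genes are all 9 members, NFE2L1, per list the 2 largest called rises and falls in the blocked mean of the 3 lines, the 5 genes most like the members and the 3 highest snoRNA genes. Alternatives were another pseudocount, other filters, voom on recovered reads, size factors, leaving out mitochondrial genes, and leaving out each library. Tables were read with Python 3.11.15, numpy 2.4.6 and pandas 2.3.3.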

Additional observations from a re-analysis of the deposited data

Results flagged for a closer look

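SNHG12 stood out because its bortezomib response had opposite signs in the lines: the bortezomib library was lower than its vehicle partner in both control pairs and higher in all 4 KO pairs, which held for 1.16% of all genes tested. The difference, KO minus control line, was 0.67 on the log2 scale. It did not pass the interaction test (limma adjusted p 0.400 with the replicate block and 1.0 without it). The control pair of R2 libraries differed by -0.01 on that scale, close to no difference, and without a block the control value was 0.24 without the unnumbered bortezomib library.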

How the results depend on the processing

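The replicate block made the largest difference to the number of the 9 genes called. Without a block, 1 gene was called over the 3 lines and 0 in each single line under every alternative pseudocount, filter and scaling. With the block by suffix the paired analysis called 7 over the 3 lines, 6 in KO1, 5 in KO2 and 1 in the control line, and the counts were the same when the unnumbered libraries shared a level with R1. With voom on recovered reads and the block they were 7, 6, 6 and 1 in that order, where 3489, 2003, 1828 and 2308 of all 12194 genes were called higher. With size factors and the block they were 7, 4, 4 and 1, beside 3466, 1946, 1787 and 2108 of all genes. Without mitochondrial genes and with the block they were 7, 5, 5 and 1, beside 3378, 1647, 1540 and 2137 of 12553 genes. Leaving out 1 library in turn, with or without the block, gave 0 to 8 over the 3 lines (6 to 8 with the block), 0 to 6 in KO1, 0 to 6 in KO2 and 0 to 1 in the control line. The counts with 1 library left out have no share of all genes beside them, so they do not set the 9 apart. In the 12 blocked fits of this kind, all 9 genes kept positive log2 fold changes over the 3 lines. The ranges were 0.412 to 0.589 for GAS5, 0.589 to 0.874 for SNHG1 and 0.546 to 0.764 for SNHG5. For SNHG7 the range was 0.74 to 0.916, for SNHG8 0.422 to 0.674 and for SNHG15 0.546 to 0.723. Lower ranges were those of SNHG6 (0.049 to 0.296), SNHG12 (0.155 to 0.414) and ZFAS1 (0.247 to 0.47). For KO1 against the control line with bortezomib the count went from 0 to 1 (SNHG8) in that second block, where 1565 of all 12194 genes were called. The block changed no call in the other KO comparisons or the interaction.

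Some directions turned. With size factors SNHG6 in the control line was -0.009 with and without the block. Leaving out 1 library gave, in the control line, -0.055 to 0.49 for GAS5, -0.447 to 0.69 for SNHG5, -0.36 to 0.38 for SNHG6, -0.17 to 0.58 for SNHG8, -0.561 to 0.24 for SNHG12 and -0.059 to 0.62 for SNHG15. It gave -0.435 to 1.04 for ZFAS1 in KO1 and -0.17 to 0.94 in KO2, and in the interaction -0.13 to 0.61 for SNHG6 and -0.41 to 0.33 for ZFAS1. The cause was not tested. Size factors moved the median of all genes for KO2 against the control line with vehicle from 0.0807 to -0.0237 with the block, so small KO differences have no fixed sign. Depth limits ZFAS1 and SNHG12 most, whose lowest libraries held 120 and 161 reads.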
